A study of Triticum polonicum with 8 samples.

Results

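The comparison described here sets N2_Cd, roots of dwarf Polish wheat given 80 µM CdCl2, against N2, roots given no added metal, both with a raised salt supply (8 mM calcium nitrate plus 10 mM potassium nitrate). It was chosen by treatment label and takes 2 of the 8 libraries of the study, 1 on each side. Dwarf Polish wheat (Triticum polonicum) is a tetraploid wheat with an A and a B subgenome. Both groups were seedlings, sampled when 4 weeks old and treated for 1 week, without the 500 µM Zn that other groups received, and both received 26 mM nitrate, computed from the 2 salts. The basal pair used beside it, N0_Cd and N0, had 80 µM and 0 µM CdCl2 with 4 mM calcium nitrate plus 5 mM potassium nitrate, and the zinc pair, N2_Cd_Zn and N2_Zn, had the same Cd doses at the raised supply together with 500 µM Zn. N0_Cd_Zn and N0_Zn, with Zn at the basal supply, complete the design. The labels state 3 biological replicates per treatment, yet each treatment has 1 column of counts.

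Cadmium is a toxic metal with no known use in most plants. It enters root cells through carriers and channels for nutrient metals and calcium, binds thiols and is held in the vacuole as complexes with phytochelatins, peptides made from glutathione. Calcium in the medium competes with cadmium at the root surface, potassium sets much of the ionic balance of root cells, and nitrate is both a nutrient and a signal that changes transcript levels in roots by itself.

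The deposited table holds reads counted per gene. Totals were 21745669 in N2_Cd and 24930243 in N2, within the range of 20000875 to 25241789 over the 8 libraries, and 79976 and 80499 genes had at least 1 read. Values are given as CPM, counts per 1000000 reads after scaling by the trimmed mean of M-values (TMM), and a difference as the log2 ratio of N2_Cd over N2 with a prior count of 2 added to each. Genes were compared when they reached 5 CPM in 1 of the 2 libraries. The files give identifiers of gene models from bread wheat, which carry a chromosome arm code, or loci with a serial number only, and do not pair them with gene names. The labelled tissue was therefore not checked against root marker genes, and genes are described by position, length and level. With 1 library a side there is no measure of replicate spread and no test, and whatever else differed between these roots or libraries and the Cd treatment cannot be told apart.

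The N2_Cd library had the most genes that were read in no other library. It held 132 genes with at least 10 reads in N2_Cd and none in the other 7 libraries, or 0.229% of the 57704 genes with 10 reads there. The other libraries had between 0 (N2_Cd_Zn) and 21 (N0_Cd_Zn) genes of this kind, and N2 had 15. The 132 genes carried between 10 and 2177 reads with a median of 33, and together 20195 reads or 0.0929% of the library. Folds of these genes over N2 are lower bounds against a floor of 3 counts in N2, from 4.35-fold at 10 reads to at least 948-fold.

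Most of the genes read in N2_Cd alone had a D code, the subgenome of bread wheat that a tetraploid lacks. Of the 132, 77 (58.3%) carried a D code, against 7.90% of all genes with 10 reads in the library, and 22 each carried an A and a B code. By arm, 2DL and 5DL had 12 each, 1DS 9, 1BS 6 and 1AS 2. The 17 genes of the short arms of chromosome group 1 were 12.9% of the set, against 3.17% of all genes with 10 reads in N2_Cd. They held 57.2% of the reads of the set, and 9 of the 12 most read genes lay there. On 1 scaffold of 1BS with 12 gene models, 4 were of this kind, and these were all the models there with a read in N2_Cd. In N2, 2 other models of this scaffold had a read. The genes were short, with a median length of 1164 bp against 1785 bp for all genes with 10 reads in N2_Cd. At least 1 read was found on 13525 D genes in N2_Cd, against 11647 in N2 and 10014 to 10921 in the other 6 libraries. The share of all reads on D genes was 2.24% in N2_Cd and 2.20% in N2, against 1.91% to 2.13% in the other 6 libraries. Without the set it was 2.19% in N2_Cd. Of the 77 D genes, 19 reached 5 CPM and so entered the comparison.

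A mirror set was nearly missing from N2_Cd while read in every other library. With at least 5 CPM in each of the other 7 libraries, 19 of 20237 genes (0.0939%) were 8-fold or more below every one of them in N2_Cd, 16 of them loci with a serial number only. The counts of the 19 genes ran from 0 to 67 in N2_Cd and from 131 to 2658 in the other libraries. N0_Zn had 17 genes this far below all others and N0_Cd_Zn 12, of which 1 each had a serial number only, and the remaining libraries had 0 to 3. In N2_Cd the set was thus made up otherwise than in N0_Zn and N0_Cd_Zn, with serial-number loci in place of genes with A and B codes. Upward, 121 genes were 8-fold or more above every other library in N2_Cd, or 0.405% of the 29855 genes at 5 CPM there, against 1 to 76 in the other libraries. Of the 121, 37 were read in N2_Cd alone, and 27 had a D code. Whether these reads and gaps come with Cd or with another difference of this library was not tested.

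**Figure D1:**
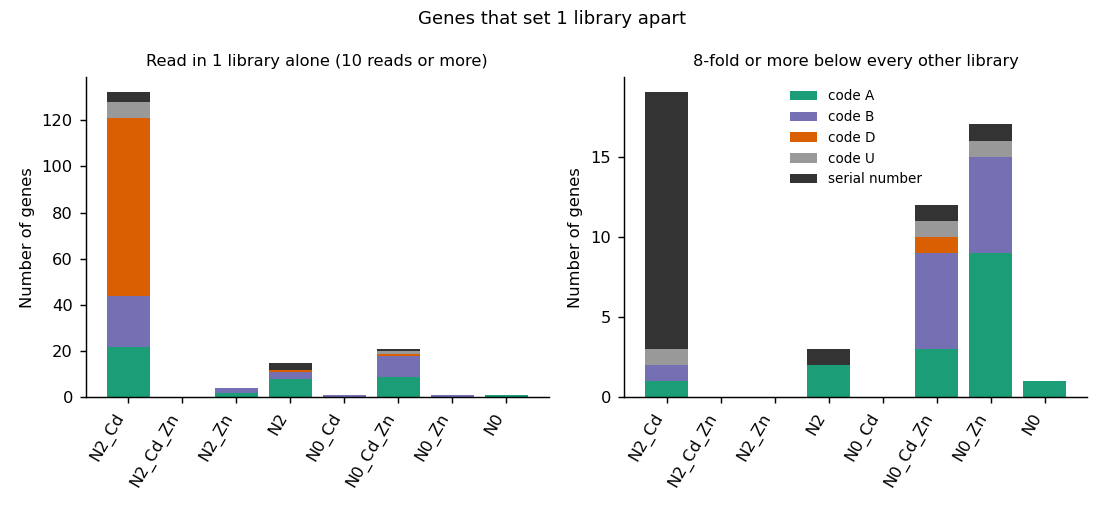
Number of genes (y axis) that set each of the 8 libraries (x axis) apart, stacked by subgenome code, with genes of at least 10 reads in 1 library and none in the others on the left and genes 8-fold or more below every other library (each of those at 5 CPM or more) on the right. N2_Cd holds 132 genes on the left, 77 of them with a D code, and 19 on the right, 16 of them with a serial number only.

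More genes were higher than lower in N2_Cd. Of 33269 genes compared, 4258 (12.8%) were 2-fold or more higher in N2_Cd than in N2 and 2464 (7.41%) were lower, while 26547 (79.8%) lay within 2-fold. The balance narrowed with the size of the difference and then turned. At 4-fold, 1607 genes (4.83%) were higher and 1105 (3.32%) lower, at 8-fold 642 (1.93%) and 619 (1.86%), and at 32-fold 166 (0.499%) and 269 (0.809%). The median log2 ratio was 0.07, with quartiles at -0.27 and 0.47. Scaled by library totals alone, the 2-fold counts were 3507 higher and 3401 lower with a median of -0.14, and with genes from 1 CPM upward they were 7371 and 6705, so the surplus of higher genes was narrow under both of these settings. Without the genes read in N2_Cd alone or 8-fold beyond every other library, 4137 were higher and 2445 lower, and at 8-fold 521 and 600. The genes left out were chosen by their N2_Cd values and all lay in the 8-fold lists, so these lower counts follow from the choice.

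**Figure D2:**
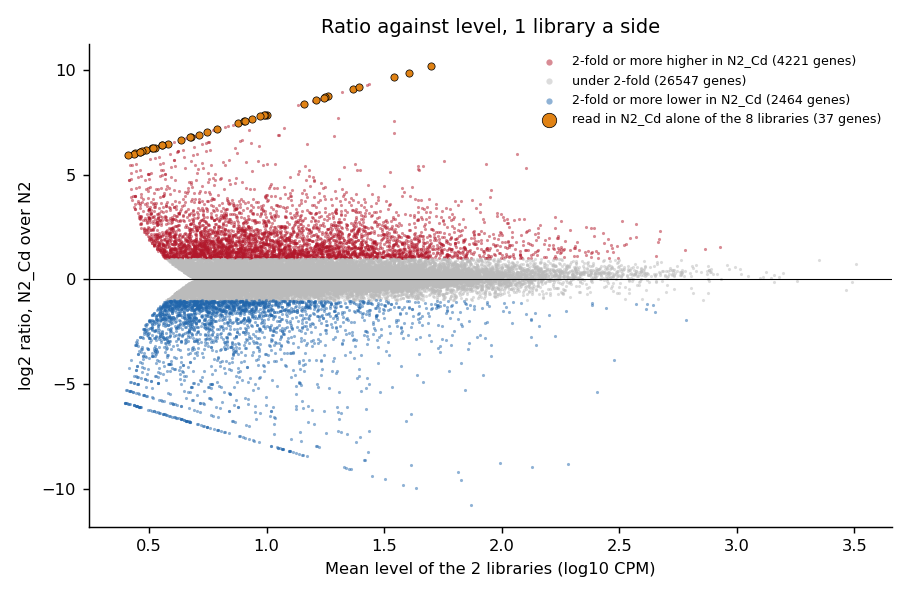
The log2 ratio of N2_Cd over N2 (y axis) against the mean level of the 2 libraries (x axis, log10 CPM), 1 point per gene of 33269 compared. The 37 compared genes read in N2_Cd alone (orange) form the upper edge on the left, and 4221 other genes are 2-fold or more higher and 2464 lower.

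By their choice, the higher genes held more of the reads of N2_Cd and the lower genes fewer. In RNA from whole roots, fewer cells of a type and less RNA per cell cannot be told apart. The higher genes held 14.6% of the reads of N2_Cd and 4.97% of those of N2, and the lower genes held 1.34% and 5.98%. The 10 most read genes gave 5.37% of the reads of the higher set in N2_Cd, and the 10 most read of the lower set gave 11.0% of its reads in N2, so that neither sum rested on a handful of transcripts. Per length, the 100 most abundant transcripts of each library ran from 390 to 3408 FPKM in N2_Cd and from 364 to 4281 FPKM in N2, and 76 were among the first 100 in both.

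The largest ratios among genes read on both sides were taken by rule, from the 12814 genes with 20 CPM in 1 library and 10 reads in each. Folds of these named genes are ratios of CPM without the prior count, while their log2 ratios include it. TRIAE_CS42_2AS_TGACv1_112388_AA0337020, a gene of 2783 bp on 2AS, had 1498 counts in N2_Cd against 13 in N2, a 150-fold ratio with a 95% counting interval of 87.7 to 283. It had 69.0 CPM in N2_Cd, 2.81 in N2_Cd_Zn, 0.789 in N2_Zn and 0.459 in N2, and 1.43, 0.444, 1.78 and 1.12 CPM in N0_Cd, N0_Cd_Zn, N0_Zn and N0. N2_Cd was thus the single library in which this gene was high, and its Cd log2 ratio was 6.99 here and 0.32 at the basal supply.

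TRIAE_CS42_3B_TGACv1_222583_AA0767250, a gene of 914 bp on 3B, was high in 3 of the 4 libraries with Cd. It had 4974 counts in N2_Cd against 102 in N2, a 63.7-fold ratio (52.4 to 78.3). In CPM it stood at 229 in N2_Cd, 82.4 in N2_Cd_Zn, 8.77 in N2_Zn and 3.60 in N2. At the basal supply it stood at 107 CPM in N0_Cd, 1.42 in N0_Cd_Zn, 10.6 in N0_Zn and 3.03 in N0, so that the basal library with both metals was the low one among those with Cd. Its log2 ratio was 5.96 here, 5.10 in the basal pair and 3.22 in the zinc pair.

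Of the lower genes read on both sides, the leading ones had a shared profile. TRIAE_CS42_3B_TGACv1_223227_AA0778410, a gene of 904 bp on 3B, had 10 counts in N2_Cd against 7631 in N2, or 584-fold lower (318 to 1219). TRIAE_CS42_3AL_TGACv1_193771_AA0619560, a gene of 895 bp on 3AL, had 17 counts against 10851, or 489-fold lower (305 to 839). In N2_Cd_Zn and N2_Zn the first had 12 and 38 counts and the second 24 and 57. In N0_Cd and N0_Zn the first had 4 and 6 counts and the second 13 and 14, against 1717 and 3100 in N0. Both were highest of all in N0_Cd_Zn, with 14039 and 19703 counts. Each was thus low in every library with 1 metal and in N2_Cd_Zn, and high in N2, N0 and N0_Cd_Zn. Near-identical copies can share reads, so their values are uncertain to that extent.

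More genes were without a read in N2_Cd than in N2, whose library was the deeper one. Among 64857 genes with 10 reads in 1 of the 2 libraries, 477 (0.735%) had at least 10 reads in N2_Cd and none in N2, and 1383 (2.13%) had at least 10 in N2 and none in N2_Cd. Most were read at low levels, with medians of 22 and 23 reads, and 77 and 115 of them reached 5 CPM. Of the 477 genes, 149 (31.2%) had a D code, against 74 (5.35%) of the 1383 and 8.34% of the 64857. The 477 include the 132 genes read in N2_Cd alone, 77 of them with a D code, so this share is not a separate observation. Genes with a serial number made up 8.60% of the 477 genes, 14.8% of the 1383 and 14.1% of the 64857.

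These 2 groups differed in which of the other libraries read their genes most often. How many of all genes with at least 10 reads in either library of the pair also had so many in each other library was not counted. The shares below therefore have no background at this minimum. Among all genes, the other libraries had a read on between 73321 (N0_Zn) and 77001 (N0). Of the 1383 genes without a read in N2_Cd, 833 (60.2%) had at least 10 reads in N0_Cd_Zn and 664 (48.0%) in N0, but 118 (8.53%) had so many in N0_Cd, 191 (13.8%) in N0_Zn, 149 (10.8%) in N2_Zn and 157 (11.4%) in N2_Cd_Zn. At this minimum the genes without a read in N2_Cd were found most often in the basal roots with both metals and in the untreated basal roots. Counted down to a single read the contrast was smaller, with no read for 143 of the genes in N0 and 150 in N0_Cd_Zn, but for 640 in N2_Zn, 693 in N2_Cd_Zn, 773 in N0_Cd and 782 in N0_Zn. Of the 477 genes without a read in N2, 121 (25.4%) had at least 10 reads in N0_Cd, the highest number among the other libraries. The remaining numbers were 69 in N0_Cd_Zn, 63 in N2_Zn, 52 in N0_Zn, 50 in N2_Cd_Zn and 34 in N0. By their choice, the 132 genes read in N2_Cd alone are among the 477 and add to none of these numbers. In the same way, the 1383 include the 15 genes read in N2 alone. The shares of the 2 groups are therefore not on an equal footing.

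The A and B subgenomes contributed equal shares, and other classes of identifiers did not. Of the genes compared, 13.5% of 13694 with an A code and 13.5% of 14065 with a B code were 2-fold or more higher in N2_Cd, and 7.31% and 7.03% were lower. Genes with a D code were higher in 18.5% of 892 cases and lower in 7.51%, and 5.61% were 8-fold or more higher, against 1.97% of A and 1.83% of B genes. Without the genes read in N2_Cd alone, 16.7% of D genes were higher and 3.55% at 8-fold, against 1.94% of A and 1.78% of B genes. Loci with a serial number leaned the other way, with 5.58% of 3420 higher and 9.33% lower and a median log2 ratio of -0.16. Size factors, TMM from the pair alone and library totals kept both directions, although 489 of the loci were lower with library totals, against 319.

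Chromosome arms differed in their share of higher genes, and the short arms of group 5 were at the low end. Among the 29 arm codes and classes with at least 400 genes compared, 6AL had the highest share, with 164 of 938 genes (17.5%) higher and 5.76% lower. It was followed by 2AL with 15.7%, 2BS with 15.6% and 6BL with 15.4%. 5AS had 33 of 497 genes (6.64%) higher and 10.1% lower, 5BS 7.93% and 7.52%, and 4BS 8.96% and 6.15%. 5AS and the serial-number loci were the classes with no more higher than lower genes, joined by 5BS with TMM from the pair alone. With library totals only, 11 arms and the serial-number loci were on that side.

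Arms of the same name in the A and B subgenomes had shares of higher genes that went together. They were paired by name only, which does not show that their genes are A and B copies of each other. Over 12 arm pairs Pearson's r was 0.77 (Spearman's rho 0.70) for the share higher and 0.32 (0.38) for the share lower. These are descriptions, since both members come from the same 2 libraries and A and B copies of a gene can share reads. The lowest pair was 5AS and 5BS, and 6AL and 6BL were both above the 12.8% of all genes.

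**Figure D3:**
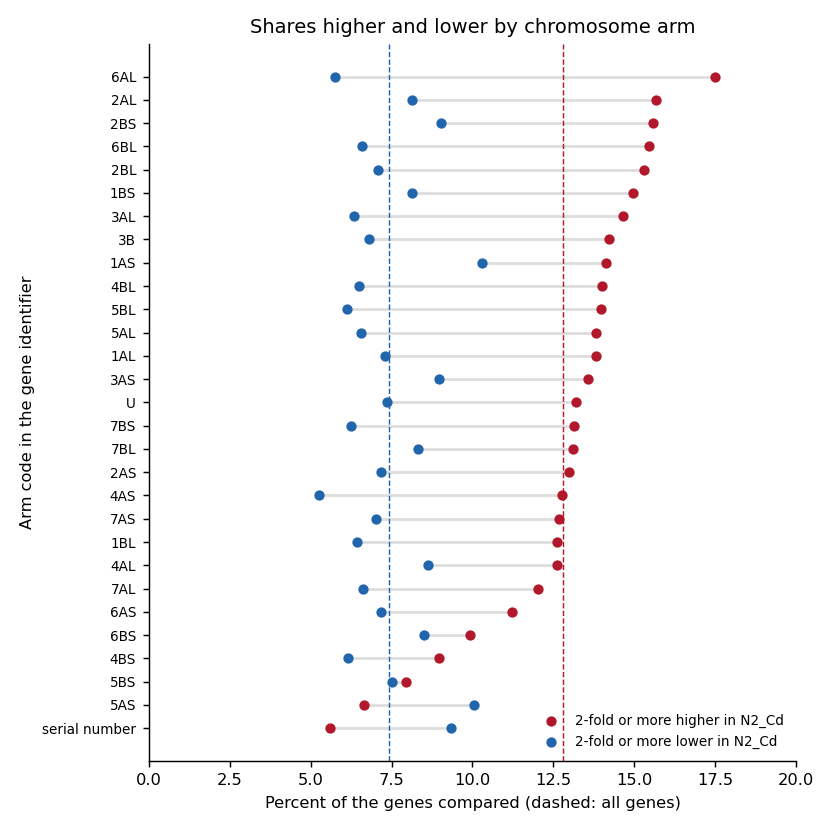
Percent of the genes compared (x axis) that were 2-fold or more higher (red) or lower (blue) in N2_Cd than in N2, by arm code (y axis), with the values over all genes (12.8% and 7.41%) as dashed lines. 6AL has the highest share of higher genes at 17.5%, and 5AS and the serial-number loci are the rows with the blue point on the right.

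Genes next to each other on a scaffold were often on the same side. By scaffold and serial number in the identifier, 6016 adjacent pairs had both genes compared. The neighbours of higher genes were themselves higher in 24.4% of 1501 cases, against 12.5% of all members of such pairs, and lower in 4.93%. The neighbours of lower genes were lower in 16.7% of 802 cases, against 6.67% of all members, and higher in 9.23%. In all, 183 pairs were both higher, 67 both lower and 74 opposite. Where the counting did not use strand, overlapping neighbours would share reads, and no source used here gives the strand setting.

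Of 1567 scaffolds with 3 or more genes compared, 15 had every gene higher and 3 had every gene lower. The following runs of genes were picked after their values were seen. On a scaffold of 4BL all 5 genes compared, of 671 to 850 bp, were higher, with 214, 129, 162, 1147 and 314 counts in N2_Cd against 14, 15, 45, 158 and 55 in N2. The same 5 genes had 37, 45, 24, 146 and 58 counts in N0_Cd against 3, 4, 8, 38 and 13 in N0, so they were also higher with Cd at the basal supply, at lower counts. With Zn they had 33, 35, 54, 209 and 105 counts in N2_Cd_Zn against 20, 27, 32, 194 and 68 in N2_Zn, which are differences of a smaller size. A scaffold of 2AL had 4 of 4 genes higher, of 663 to 735 bp, with 110, 298, 185 and 157 counts in N2_Cd against 8, 35, 21 and 26 in N2.

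On a scaffold of 2BS, 4 of 5 genes compared were lower. Next to each other, 2 of them had 0 counts in N2_Cd against 433 and 1204 in N2, at least 111-fold and 307-fold lower against the floor of 3 counts. They also had 0 counts in N2_Cd_Zn and N2_Zn, 0 and 1 in N0_Cd, and 1 and 0 in N0_Zn, against 57 and 129 in N0, and 166 and 229 in N0_Cd_Zn. The remaining lower genes of this scaffold had 37 and 973 counts in N2_Cd against 333 and 8288 in N2, and the fifth was higher, with 865 against 207. The run therefore held genes without a read in N2_Cd and a neighbour on the other side.

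Short genes were more often apart in both directions, and the more so among higher genes. The genes compared were split by length into 4 groups of equal size. In the shortest group, up to 1376 bp, 16.8% were higher and 9.01% lower, and in the longest, above 2643 bp, 7.91% and 6.87%. The groups between had 15.0% and 11.5% higher, so each step in length went with a smaller share. At 8-fold the shares higher were 3.95%, 1.85%, 1.27% and 0.637% from the shortest to the longest group, and 3.60% in the shortest without the genes read in N2_Cd alone. The shares lower at 8-fold were 2.67%, 1.95%, 1.36% and 1.47%. The order was also there among genes with a mean of 10 to 50 CPM over the 8 libraries, with 12.3%, 10.7%, 9.16% and 5.35% higher, and with 6.36%, 4.10%, 3.23% and 3.25% lower. Of 1437 genes with a mean of 100 CPM or more, 9.60% were higher and 3.76% lower, and at 8-fold 1 was higher and 9 lower. Of 3920 genes with a mean under 5 CPM, 33.2% were higher and 21.8% lower. They gave 1300 of the 4258 higher and 855 of the 2464 lower genes, and at 8-fold 375 of 642 and 305 of 619. Genes with so low a mean were compared because N2_Cd or N2 lay above it, which favours large ratios.

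Over the 8 libraries, the genes higher in N2_Cd were next highest in N0_Cd. Their median level was 15.8 CPM in N2_Cd, 8.54 in N2_Cd_Zn, 8.07 in N2_Zn and 4.20 in N2. At the basal supply it was 10.3 CPM in N0_Cd, 3.06 in N0_Cd_Zn, 4.76 in N0_Zn and 4.37 in N0. For 2211 of the 4258 genes N2_Cd was the highest library of all 8, which their choice favours. N0_Cd was the highest library for 714 (16.8%), against 7.80% of all genes compared. N0_Cd_Zn was the lowest library for 1976 (46.4%), against 22.7% of all genes compared.

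The genes lower in N2_Cd had their highest medians in N2, N0_Cd_Zn and N0. Their median was 2.67 CPM in N2_Cd, 4.67 in N2_Cd_Zn, 3.94 in N2_Zn and 10.5 in N2, and 3.32 CPM in N0_Cd, 9.06 in N0_Cd_Zn, 3.48 in N0_Zn and 6.79 in N0. N0_Cd_Zn was the highest library for 763 of the 2464 genes (31.0%), against 16.9% of all genes compared, N0_Zn for 339 (13.8%, against 22.3%) and N0 for 278 (11.3%, against 8.52%). N2 was the highest for 854 and N2_Cd the lowest, alone or tied, for 842, both of which the choice of the genes favours.

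**Figure D4:**
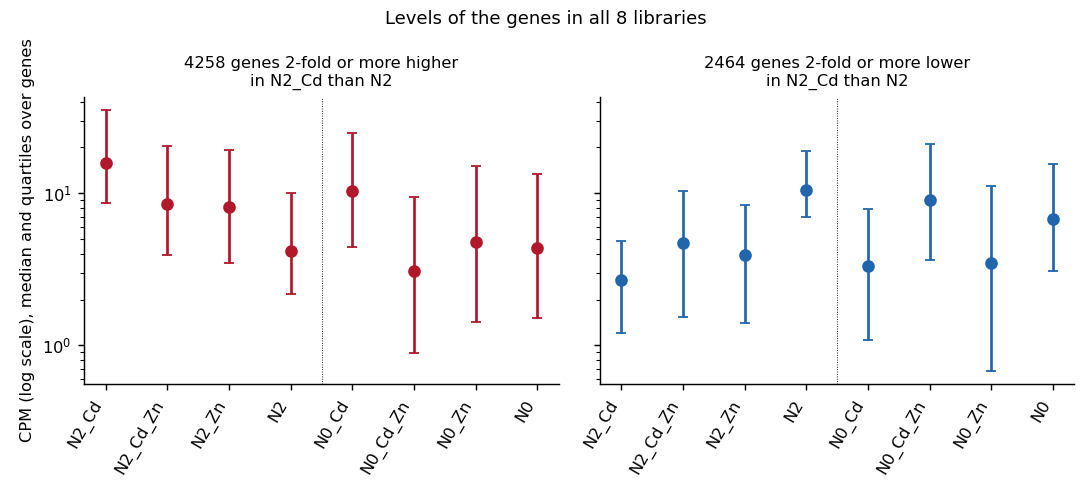
Median level with quartiles over genes (y axis, CPM on a log scale) in each of the 8 libraries (x axis, raised supply on the left of the dotted line) for the genes 2-fold or more higher (left panel) and lower (right panel) in N2_Cd than in N2. N0_Cd is next highest after N2_Cd on the left at 10.3 CPM, and N0_Cd_Zn is next highest after N2 on the right at 9.06 CPM.

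The basal Cd pair shares no library with this one, and the genes went the same way there far more often than the opposite way. In N0_Cd against N0, 3950 of 32686 genes (12.1%) were higher and 2852 (8.73%) lower. Higher in both pairs were 1644 of the 29164 genes compared in both (5.64%), which is 38.6% of the 4258 higher genes at the raised supply and 41.6% of the 3950 at the basal supply. Lower in both were 840 (2.88%), or 34.1% of the 2464 and 29.5% of the 2852. Opposite directions were seen for 245 genes (0.84%).

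Over every member, without a minimum level in the basal pair, the genes higher in N2_Cd than in N2 had a median basal log2 ratio of 1.04 and the lower genes one of -0.96, against 0.04 for all 33269 genes. Of the 642 genes 8-fold or more higher, 235 (36.6%) were 2-fold or more higher in the basal pair and 12 lower, while 358 did not reach 5 CPM there. Of the 619 genes 8-fold or more lower, 262 (42.3%) were lower in the basal pair and 7 higher, while 309 did not reach 5 CPM. Of all 33269 genes, 10.2% were higher and 5.69% lower in the basal pair, and 4105 did not reach 5 CPM there. The shares of the 8-fold lists, which count the genes below 5 CPM, compare with 38.6% and 34.1% of the 2-fold lists. Among genes compared in both pairs, 284 were 8-fold or more higher and 310 lower, and 82.7% and 84.5% of these went the same way. The shares were 52.4% and 52.2% for the 2-fold lists. Of all 29164 genes compared in both, 11.6% were higher and 6.49% lower in the basal pair. The opposite way went 4.23% and 2.26% of the 8-fold lists so filtered, and 3.47% and 8.45% of the 2-fold lists. A gene under 5 CPM in 1 basal library entered only by reaching 5 CPM in the other, which favours large basal ratios. No gain with size is therefore read from these filtered shares. Over every member of the 8-fold lists, the median basal log2 ratios were 1.73 and -3.02. The 2 log2 ratios were 1 or more apart for 4540 genes (15.6%), with 2313 of them larger at the raised supply and 2227 smaller. With 1 library per treatment these differences were not tested.

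In the zinc pair, which shares no library with this one either, the higher and the lower genes were spread over both directions. In N2_Cd_Zn against N2_Zn, 1943 of 31873 genes (6.1%) were higher and 2690 (8.44%) lower. Of the 4258 genes higher in N2_Cd than in N2, 556 (13.1%) were higher in the zinc pair and 500 (11.7%) lower, while 1034 did not reach 5 CPM there. Of the 2464 lower genes, 135 (5.48%) were lower and 283 (11.5%) higher, while 1139 did not reach 5 CPM. Of all 33269 genes, 4.55% were higher and 6.99% lower in the zinc pair, and 3676 did not reach 5 CPM there. The median log2 ratios over every member were 0.21 for the higher and 0.14 for the lower genes, against -0.03 for all.

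Most genes with the largest differences did not reach 5 CPM in the zinc pair, against 3676 of all 33269 genes. Of the 642 genes 8-fold or more higher in N2_Cd than in N2, 396 were below that level, 106 (16.5%) were higher and 51 (7.94%) lower in N2_Cd_Zn than in N2_Zn. Of the 619 genes 8-fold or more lower, 474 were below it, 12 (1.94%) were lower and 56 (9.05%) higher. The difference between the Cd ratios without and with Zn was not tested.

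**Figure D5:**
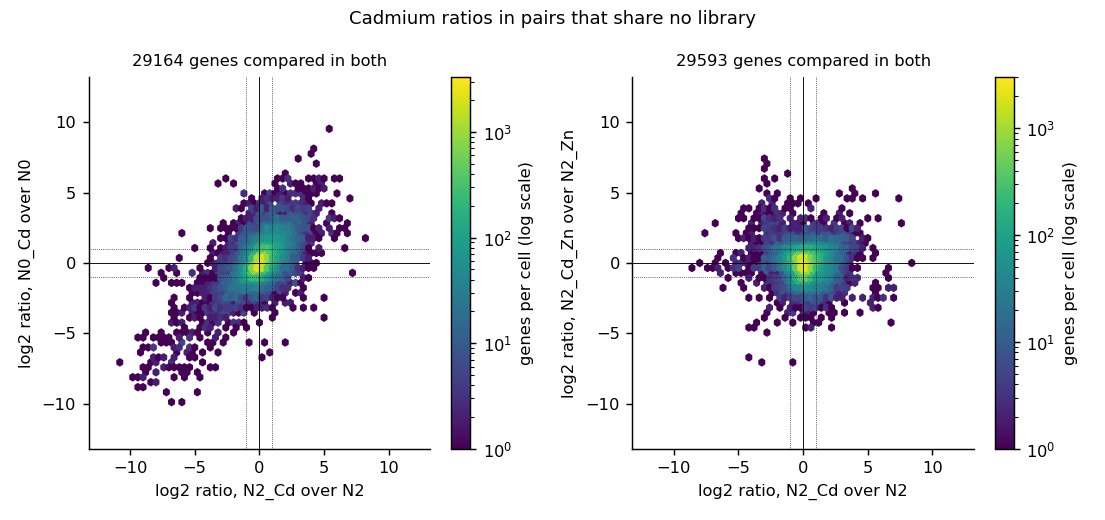
The log2 ratio of N2_Cd over N2 (x axes) against that of N0_Cd over N0 (left) and of N2_Cd_Zn over N2_Zn (right), with colour for the number of genes per cell on a log scale and dotted lines at 2-fold. On the left 1644 genes lie beyond 2-fold in the upper right and 840 in the lower left, and on the right 556 and 135.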

How the data were processed

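Per the labels' protocols, Trizol was used for RNA from roots and an Illumina TruSeq kit for the libraries. Tools named in the submitters' processing notes are TopHat2 2.0.12 and Bowtie2 2.0.6. How reads were counted, on which strand and against which genome build is not given by any source used here. The authors deposited counts, unnormalized, for 124856 genes, with 1 column per treatment. The authors' FPKM values were found to be the count over gene length and column total, and served for gene lengths and for levels between genes. TMM factors came from edgeR 4.0.16 (64580 genes kept by filterByExpr with a minimum count of 10, all 8 libraries), size factors for an alternative from DESeq2 1.42.0, and the rest from Python 3.11.15. No replicates exist in the files, so no test was run. Counting intervals are exact binomial (95%). Intervals and the floor of 3 counts cover counting error only. The ratio step was tested on simulated data. Named genes were the 2 largest ratios in each direction with at least 20 CPM in 1 library and 10 reads in each. Gene lists by product could not be used without names. The comparison, thresholds and lists were chosen with earlier results of these data known. Alternatives covered scaling, low-value filter, prior count, FPKM and genes kept.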

Additional observations from a re-analysis of the deposited data

Results flagged for a closer look

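The Cd ratios of the 2 supplies went opposite ways, at 2-fold or more on both sides, for a small group of genes, with 1 library per treatment. In this group 109 genes were higher in N2_Cd than in N2 and lower in N0_Cd than in N0, with median log2 ratios of 1.64 and -1.41. Their median level was 14.0 CPM in N2_Cd against 4.69 in N2, and 6.32 CPM in N0_Cd against 20.2 in N0. Another 136 genes were lower in N2_Cd than in N2 and higher in N0_Cd than in N0, with medians of -1.43 and 1.59. Their median level was 5.28 CPM in N2_Cd against 16.4 in N2, and 13.5 CPM in N0_Cd against 3.91 in N0. Codes A and B accounted for 48 and 51 of the 109 genes and for 45 and 73 of the 136. The difference between the supplies was not tested.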

How the results depend on the processing

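No paired analysis was possible because each treatment has 1 column and the labels give no replicate numbers. No alternative turned the direction of a named gene. Size factors, TMM from the pair alone and prior counts of 0.5 and 10 left every 2-fold count within 1.5 times its value. With library totals only, the median log2 ratio was -0.14, and on log2(FPKM + 1) and log2(FPKM + 0.1) it was -0.11 and -0.12, against 0.07. The split of higher against lower genes was 3507 and 3401 with totals, 4052 and 2878 with totals centred on the median (an alternative added after the values were seen), 2880 and 2244 on log2(FPKM + 1), and 3472 and 3005 on log2(FPKM + 0.1). A minimum of 1 CPM, which admits more genes, gave 7371 higher and 6705 lower, with 3281 higher in both Cd pairs, 2684 lower in both and 568 opposite. Without a filter the numbers were 12836, 12089, 4862, 5162 and 1427. On log2(FPKM + 1), 1083 genes were higher in both. Serial-number loci numbered 489 lower with totals (319 otherwise) and 125 higher on log2(FPKM + 1) (191 otherwise). Minimums of 5 and 20 reads gave 249 and 85 genes read in N2_Cd alone. Shares by code and length without those genes, by length at 10 to 50 CPM, and lists followed into other pairs without a minimum CPM, were also added after the values were seen. Depth limits single genes: 3 counts were 0.138 CPM in N2_Cd and 0.106 CPM in N2.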
